A study of Homo sapiens with 4 samples.

Results

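The genes described here are the 8 DNA methylation and demethylation enzymes DNMT1, DNMT3A, DNMT3B, UHRF1, TET1, TET2, TET3 and TDG. They were taken by gene symbol from a deposited table of 19775 genes, and all 8 were listed. The cells were H1, an established wild-type human embryonic stem cell line, cultured in E8, a defined medium with insulin, transferrin, selenite, ascorbate, FGF2 and TGFβ. The labels give 2 samples kept for 12 h in E8 alone and 2 treated for 12 h with 1 µM XMD892 in E8. XMD892 is a compound that inhibits ERK5, a mitogen-activated protein kinase. Poly(A) RNA was sequenced in paired ends. Of the table's 9 columns of values, 2 carry names that match a sample, and both are XMD892 at 12 h, called replicate 1 and replicate 2 here. Another column is also named XMD at 12 h, but no sample of the labels matches it, and it was not used. The samples in E8 alone were not analysed here, because the names of the untreated columns give another culture time than their labels. The values below are therefore levels in treated cells and differences between the 2 treated libraries, and none of them is an effect of the compound.

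DNA methylation is written on cytosines of CpG sites and copied at each cell division. UHRF1 recognises the half-methylated DNA left behind the replication fork and recruits DNMT1, which restores the mark on the new strand. DNMT3A and DNMT3B methylate unmodified sites. TET1, TET2 and TET3 oxidise 5-methylcytosine, and the glycosylase TDG cuts out the most oxidised forms, after which base excision repair puts back an unmodified cytosine. Primed human pluripotent cells are known for high DNMT3B and for a genome with much CpG methylation.

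The depth was 18528689 reads in replicate 1 and 20217648 reads in replicate 2, summed over the table. All 7 markers fixed for pluripotent cells reached 1 RPKM in both libraries, where RPKM is a read count divided by the kilobases of merged exon sequence and scaled to the total reads; their summed level was 1776 RPKM in replicate 1 and 2357 RPKM in replicate 2. Without POU5F1 the sum was 1042 and 927 RPKM, so its direction turned with that gene. SOX2, NANOG and DPPA4 were also higher in replicate 2. LIN28A, with 536 and 402 RPKM, TDGF1 and ZFP42 were higher in replicate 1. Markers of other cells differed between the libraries. Of 6 mesenchymal markers 3 were listed, with a sum of 76.1 RPKM in replicate 1 and 10.2 RPKM in replicate 2. Most of it came from TAGLN, with 62.2 and 5.34 RPKM, and COL3A1, DCN and LUM were not listed. Of 4 neural progenitor markers 3 were listed, with sums of 173 and 90.7 RPKM, most of it from NES (nestin), and PAX6 was not listed. Of 5 endoderm markers 2 were listed, with sums of 0.734 and 0.553 RPKM, and of 5 trophoblast or amnion markers 3 were listed, with sums of 1.16 and 1.09 RPKM.

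The promoter stretches shown here belong to DNMT1 and UHRF1, the pair that maintains methylation through S phase. They carry a word of the E2F consensus, the motif of the factors that drive S-phase genes. The words searched were TTTCGCGC, TTTGGCGC, TTTCCCGC and TTTGCCGC on both strands, in windows from 250 bases before to 50 bases after each RefSeq start (GRCh38.p14). All 8 genes had such windows, 19 in all. The windows of DNMT1 and UHRF1 all lie inside these genes as GENCODE 29 places them. So does the single window of DNMT3B, from 32779602 to 32779901 on chromosome 20. The first starts of DNMT1, UHRF1 and DNMT3B in that annotation were not searched. The words were found in 3 of the 19, at DNMT1 and at 2 starts of UHRF1, against 3.31% of 35116 windows of the same length over all genes. By gene, 2 of 8 had a match, against 3.99% of 27305 genes with a window. Genes with several starts, such as UHRF1 with 3, had more windows in which a word could fall. Each word holds a CpG itself. The windows with a match held 30 CpG at DNMT1 and 36 and 40 at UHRF1, against a median of 14 over all windows. The part of CpG content was not tested. The match in the DNMT1 stretch (chr19:10194944-10194995, minus strand) begins 2 bases before the start and so spans it. Those at UHRF1 begin 14 bases before the first of its 3 RefSeq starts searched (chr19:4909447-4909510, plus strand) and 160 bases before the second (chr19:4909944-4910031, plus strand). Each stretch is written 5′ to 3′ on the gene's strand, and capitals mark the word or its reverse complement.
DNMT1: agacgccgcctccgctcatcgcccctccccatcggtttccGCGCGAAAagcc
UHRF1, first start: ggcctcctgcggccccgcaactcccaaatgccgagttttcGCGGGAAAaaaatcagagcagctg
UHRF1, second start: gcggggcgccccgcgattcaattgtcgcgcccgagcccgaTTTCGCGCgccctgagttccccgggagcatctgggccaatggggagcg
A match is a description of letters in these windows. No binding was measured, and the other 6 genes lacked these words in these windows only. DNMT3A, DNMT3B and TET3 are among those 6. They differed between the libraries by an amount like that of DNMT1 and UHRF1, as given below. Whether the words bear on these differences was not tested.

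Of the 8 transcripts, 7 were at 1 RPKM or more in each library. The median level of the 8 was 19.9 RPKM against 2.31 RPKM over the 19262 genes with a length. Most of those genes thus also passed 1 RPKM in the mean of the libraries. DNMT3B stood far above the rest, TET2 far below, and the other 6 lay between 3.94 and 26.9 RPKM in the mean. In the order of mean levels DNMT3B was followed by DNMT1, UHRF1, TDG, DNMT3A, TET1, TET3 and TET2. The ranges of the 2 libraries did not overlap between DNMT3B and DNMT1, between DNMT3A and TET1, between TET1 and TET3, or between TET3 and TET2. They did overlap between neighbours among DNMT1, UHRF1, TDG and DNMT3A. Within each library DNMT1 was above UHRF1 and UHRF1 above DNMT3A. On merged exons TDG lay below all 3 of them in replicate 1 and above all 3 in replicate 2. With 2 libraries, and labels that do not say whether they came from separate cultures, that spread may be technical.

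**Figure D1:**
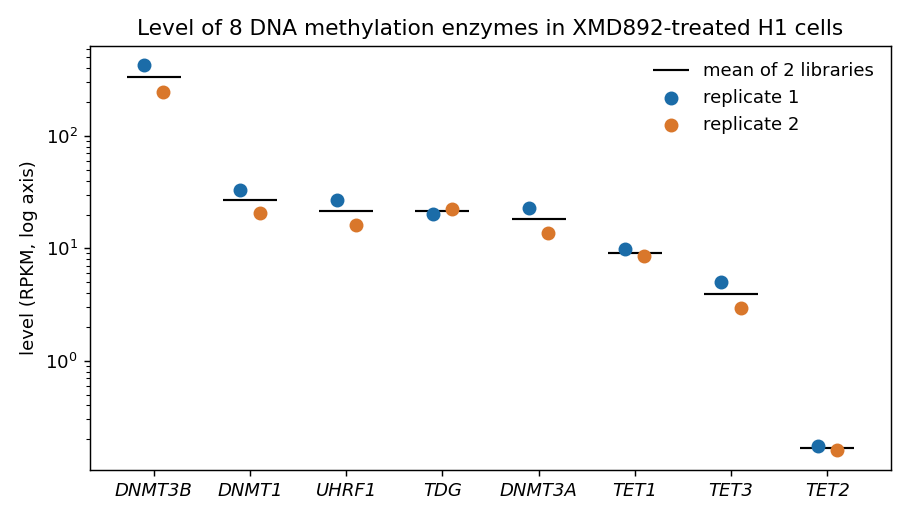
Level of each of the 8 enzymes in RPKM (vertical log axis) in the 2 libraries of H1 cells treated with XMD892 for 12 h. Points are libraries and bars their mean; DNMT3B lies at 245 and 426 RPKM, TET2 below 0.18 RPKM, and the other 6 genes between them.

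Among the methyltransferases, DNMT3B had 426 RPKM in replicate 1 and 245 RPKM in replicate 2, a mean of 336 ± 129 RPKM (SD, n = 2). Replicate 1 was the higher, and even the lower library was above every other member in either library. The values rest on 36578 and 22900 reads, and 82 of the 19262 genes had a higher mean level. DNMT3B spans chromosome 20 from 32762385 to 32809356, plus strand (GRCh38, GENCODE 29, as for all genes here) and none of the 50-base stretches of its transcripts occurred in transcripts of other genes.

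DNMT3A, the second de novo enzyme, had 23.1 RPKM in replicate 1 and 13.7 RPKM in replicate 2, with a mean of 18.4 ± 6.63 RPKM (SD, n = 2). Replicate 1 was again the higher. The gene spans chromosome 2 from 25227855 to 25342590, minus strand. DNMT3B exceeded DNMT3A 18.5-fold in replicate 1 and 17.9-fold in replicate 2, a ratio taken within each library and so free of the scaling between libraries. It was nearly the same in both, although DNMT3B alone was 1.62-fold and DNMT3A alone 1.57-fold higher in replicate 1 on the normalized scale.

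DNMT1, the maintenance enzyme, had 33.0 RPKM in replicate 1 and 20.7 RPKM in replicate 2, on 5996 and 4109 reads, with a mean of 26.9 ± 8.69 RPKM (SD, n = 2). Replicate 1 was the higher. The gene spans chromosome 19 from 10133345 to 10231286, minus strand, and 0.847% of its exon bases overlap the neighbour S1PR2. Its level depends on the length used: the merged exons come to 9796 bases and the longest transcript to 5408, and with the latter the mean was 48.7 RPKM. Of the summed RPKM of the 3 methyltransferases, DNMT3B made up 88.4% in replicate 1 and 87.7% in replicate 2, DNMT1 6.85% and 7.43%, and DNMT3A 4.78% and 4.90%.

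UHRF1, the partner that brings DNMT1 to replicated DNA, had 26.8 RPKM in replicate 1 and 16.1 RPKM in replicate 2, with a mean of 21.4 ± 7.61 RPKM (SD, n = 2). The order of the libraries was the same as for DNMT1. UHRF1 spans chromosome 19 from 4903080 to 4962154, plus strand. Of its 50-base stretches, 21.4% also occur in transcripts of other genes, nearly all of them in the processed pseudogene AC112777.1, so its count is uncertain where reads were shared or dropped. DNMT1 stood 1.23-fold above UHRF1 in replicate 1 and 1.29-fold in replicate 2, nearly the same proportion.

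Among the oxidising enzymes, TET1, which carries a CXXC domain that binds CpG-rich DNA, had 9.82 RPKM in replicate 1 and 8.53 RPKM in replicate 2, with a mean of 9.18 ± 0.911 RPKM (SD, n = 2). The libraries lay close together, on 1690 and 1602 reads. TET1 spans chromosome 10 from 68560656 to 68694482, plus strand.

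TET3, known for its role in the zygote, had 4.97 RPKM in replicate 1 and 2.92 RPKM in replicate 2, with a mean of 3.94 ± 1.45 RPKM (SD, n = 2), and replicate 1 was the higher. It spans chromosome 2 from 73986404 to 74108176, plus strand. TET1 exceeded TET3 1.98-fold in replicate 1 and 2.92-fold in replicate 2. In proportion to TET1, TET3 was the lower in replicate 2.

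TET2, the family member best known from blood cells, had 53 reads in each library, or 0.174 RPKM in replicate 1 and 0.159 RPKM in replicate 2, a mean of 0.166 ± 0.0103 RPKM (SD, n = 2). Only 13.3% of genes with a length had a lower mean level. The gene spans chromosome 4 from 105145875 to 105279816, plus strand, and its merged exons of 16474 bases are the longest of the 8; over its longest transcript the mean was 0.27 RPKM. TET1 exceeded TET2 56.6-fold and 53.6-fold in the 2 libraries. Of the summed RPKM of the TET family, TET1 made up 65.6% in replicate 1 and 73.5% in replicate 2, TET3 33.2% and 25.1%, and TET2 1.16% and 1.37%.

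TDG, the glycosylase that removes oxidised methylcytosine, had 20.4 RPKM in replicate 1 and 22.3 RPKM in replicate 2, with a mean of 21.3 ± 1.39 RPKM (SD, n = 2). It was the only member with the higher level in replicate 2. TDG spans chromosome 12 from 103965804 to 103988874, plus strand, and 6.74% of its 50-base stretches also occur in the processed pseudogene TDGP1. On merged exons DNMT1 stood 1.62-fold above TDG in replicate 1 and at 0.929 times its level in replicate 2, so their order turned between the libraries. This depended on the length used. Over the longest transcripts DNMT1 stood above TDG in both libraries, 1.95-fold in replicate 1 and 1.12-fold in replicate 2. On merged exons UHRF1 stood at 1.32 times the level of TDG in replicate 1 and 0.72 times in replicate 2. Over the longest transcripts these were 1.04 and 0.57 times.

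The libraries were then compared gene by gene. In bulk RNA, fewer cells that express a gene and less of its RNA per cell cannot be told apart. Each difference was taken as replicate 2 minus replicate 1 on the scale log2(normalized count + 1), where the normalized count is the authors' read count divided by a size factor per library. All 8 members passed the minimum mean normalized count of 10, as did 16148 genes in all. Of the 8, 7 were higher in replicate 1, against 47.9% of the 16148 genes, and the median difference was -0.60 against 0.023 over those genes. None differed by 2-fold or more (0 of 8, against 10.9% of tested genes). There is a single library on each side, so no test was possible. The values of these 2 libraries do not show which of them is the unusual one, and the unmatched column named XMD at 12 h was not examined.

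Within the 8 the differences, as point values, fell into separate ranges. DNMT3B went from 39265 normalized counts in replicate 1 to 24165 in replicate 2, a difference of -0.70 with an exact binomial (Clopper-Pearson) 95% counting interval of -0.72 to -0.68. TET3 went from 1212 to 764 normalized counts, a difference of -0.66 (interval -0.80 to -0.53). DNMT3A went from 5512 to 3508 normalized counts, a difference of -0.65 (interval -0.72 to -0.59). All of these were lower in replicate 2 by a like proportion.

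UHRF1 went from 2746 to 1763 normalized counts, a difference of -0.64 (interval -0.73 to -0.55). DNMT1 went from 6436 to 4336 normalized counts, a difference of -0.57 (interval -0.63 to -0.51). These 5 genes, both de novo enzymes, the maintenance pair and TET3, were 1.48-fold to 1.62-fold higher in replicate 1. Of all tested genes 17.1% were at least 1.4-fold higher there, a bound chosen after the values were seen, and between 11.0% and 14.1% had a lower difference than each of the 5.

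The other 3 members differed less. TET1 went from 1814 to 1691 normalized counts, a difference of -0.10 (interval -0.20 to -0.0024). TET2 stood at 56.9 and 55.9 normalized counts, a difference of -0.024 (interval -0.60 to 0.55). At 53 reads a library, a gap of TET2 inside that interval was not detectable. The interval holds the -0.57 of DNMT1, so TET2 is apart from the genes above in its point value only. TDG went from 1985 to 2335 normalized counts, a difference of 0.23 (interval 0.14 to 0.32). The interval excluded equal levels for 7 of the 8 members and for 58.1% of tested genes. It covers counting error only, because it is computed from 1 read count per library, and variation between cultures or preparations is not in it. The reads carry no molecular identifiers, so copies of 1 molecule cannot be told by them from separate molecules.

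**Figure D2:**
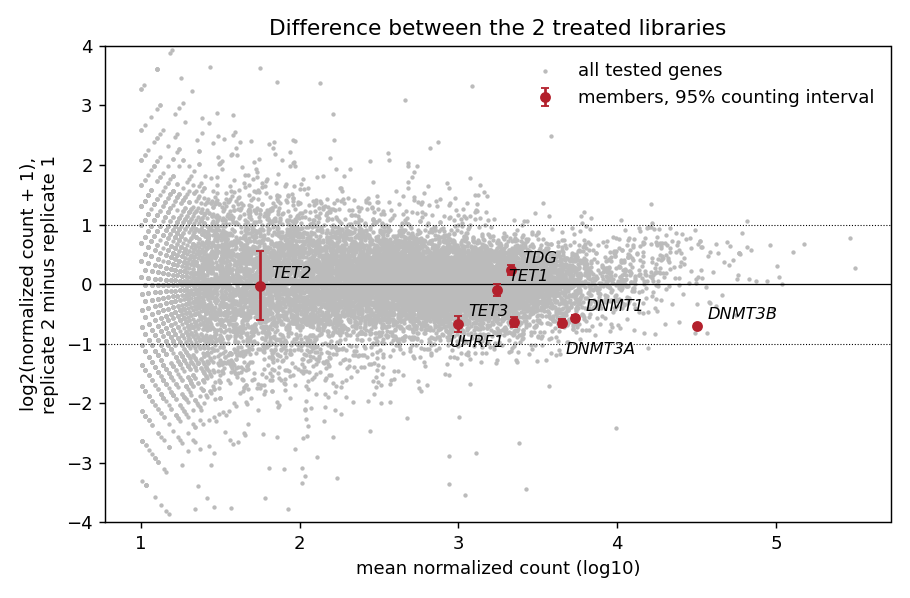
Difference between the libraries, log2(normalized count + 1) in replicate 2 minus replicate 1 (vertical axis), against the mean normalized count (horizontal, log10). Grey points are the 16148 tested genes, of which 11 lie outside the vertical range, red points are the 8 enzymes with 95% counting intervals, and dotted lines mark 2-fold; DNMT1, DNMT3A, DNMT3B, UHRF1 and TET3 lie between -0.57 and -0.70, TET1, TET2 and TDG near 0 or above it.

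The base composition of the transcripts moved with this split of the point values. The longest transcripts of the 5 genes that were higher in replicate 1 had a GC content of 52.3% (TET3) to 55.4% (DNMT1). Those of TDG, TET1 and TET2 had 39.5%, 41.0% and 43.0%. Over the 15774 tested genes with a GC content the shift was smaller: with the genes cut into 5 bins of equal size, the median difference was 0.11 in the bin with the lowest GC content and -0.066 in the bin from 51.7% to 58.2%, which holds those 5 genes. In the bin with the highest GC content it was -0.021, so it did not go one way throughout, and Pearson's r across genes was -0.049 for GC content and -0.092 for log2 length; genes are not independent replicates. It also went with length, from 0.19 in the bin with the shortest transcripts to -0.076 in the bin with the longest. After the medians of genes of like GC content and then of like length were taken off, DNMT3B stood at -0.64, UHRF1 at -0.58, DNMT3A at -0.43, DNMT1 at -0.41 and TET3 at -0.38, while TDG stood at 0.15, TET2 at 0.078 and TET1 at -0.038. That correction was chosen after the data were seen. The part of the mesenchymal and neural markers, also higher in replicate 1, was not tested.

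**Figure D3:**
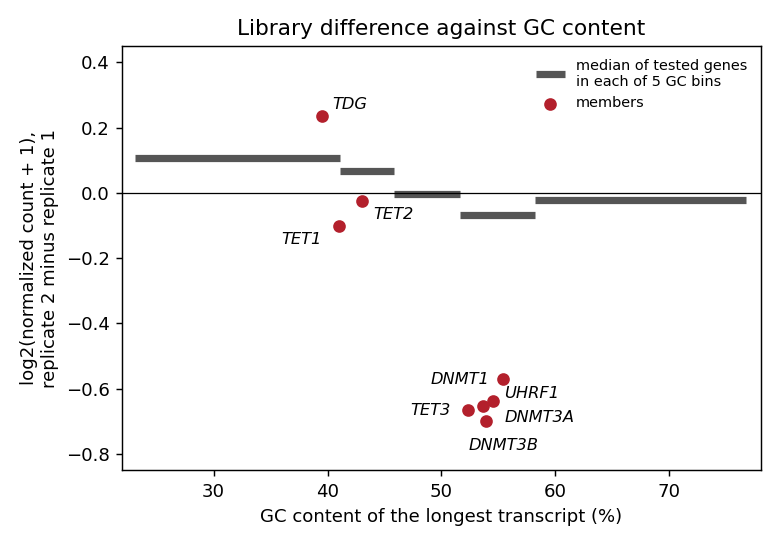
Difference between the libraries (vertical axis, log2, replicate 2 minus replicate 1) against the GC content of each gene's longest transcript (horizontal, percent). Red points are the 8 enzymes and grey bars the median of the 15774 tested genes with a GC content in each of 5 bins; the 5 enzymes with GC content above 52% lie near -0.6, while the medians of the bins stay between -0.066 and 0.11.

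The wider pathway was described through 10 lists of 108 genes, of which 94 were listed in the table. Proteins that work beside DNMT1 and UHRF1 at the replication fork were all at 1 RPKM or more in each library (12 of 12), and their median was 25.6 RPKM. PCNA, the replication clamp, led at 196 ± 8.49 RPKM (SD, n = 2), followed by USP7, the deubiquitinase that stabilises UHRF1 and DNMT1, at 34.6 ± 8.31 RPKM. Of the 12 genes 8 were higher in replicate 1, against 47.9% of tested genes, with a median difference of -0.15 against 0.023 over those genes. HELLS, a chromatin remodeller needed for methylation of repeats, had the largest difference, with 2985 and 1698 reads and 1.79-fold more in replicate 1.

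The DNA replication genes, whose products are used in the same phase of the cell cycle, were mostly a little higher in replicate 1. Of 14 genes 10 were higher in replicate 1, against 47.9% of tested genes, and their median difference was -0.065, against 0.023 over those genes. With total reads as the scale, 13 of 14 were higher in replicate 1, against 56.9% of tested genes. Their median difference on that scale was -0.17, against -0.077 over those genes. MCM3 and MCM7, subunits of the replicative helicase, stood at 130 ± 7.30 and 125 ± 2.20 RPKM (SD, n = 2). RRM2, a subunit of ribonucleotide reductase, differed most, at 1.51-fold higher in replicate 1. No test of the lists against each other was made.

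Of the cofactors of de novo methylation and the proteins that protect imprints, 10 of 12 were listed. DNMT3L, the catalytically inactive partner of the de novo enzymes, and ZFP57, a zinc finger protein of imprinted regions, were not listed. TRIM28, the corepressor that zinc finger proteins recruit, led at 296 ± 104 RPKM (SD, n = 2) and also had the largest difference, 1.55-fold higher in replicate 1. DAXX, a histone H3.3 chaperone, followed at 30.7 ± 6.19 RPKM. The median difference of the 9 tested genes was -0.095, with 6 higher in replicate 1, against 47.9% of tested genes.

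Genes tied to TET activity were IDH1, IDH2, OGDH and GLUD1 around the cofactor 2-oxoglutarate, the transporters SLC2A1 and SLC23A2, and partner proteins such as OGT. IDH1 led at 106 ± 10.6 RPKM (SD, n = 2), followed by the glucose transporter SLC2A1 at 87.3 ± 26.3 RPKM. Of 12 genes 6 were higher in each library, against 47.9% of tested genes in replicate 1 and 52.1% in replicate 2. HCFC1, a partner of OGT, had 5449 and 2580 reads and was 2.15-fold higher in replicate 1, the only gene of this list past 2-fold (1 of 12, against 10.9% of tested genes).

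The genes of the base excision repair list mostly shared the direction of TDG. Of 12 genes 10 were higher in replicate 2, against 52.1% of tested genes, with a median difference of 0.18 and none past 2-fold. With total reads as the scale, 8 of 12 were higher in replicate 2, against 43.1% of tested genes. APEX1, the nuclease that cuts the abasic site, led at 223 ± 32.7 RPKM (SD, n = 2), and PARP1, a sensor of strand breaks, followed at 122 ± 3.42 RPKM. The glycosylase NEIL1 differed most, at 1.38-fold higher in replicate 2 on 94 and 132 reads.

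The list of methyl-CpG readers and other MBD-named genes was lower. A place in this list does not mean that a protein, such as MBD3 or MBD6, binds methylated CpG. Of its 10 genes 8 were at 1 RPKM or more in each library, and the median of the list was 3.68 RPKM. MBD3, a subunit of the NuRD complex, led at 15.6 ± 3.04 RPKM (SD, n = 2) and the glycosylase MBD4 followed at 11.8 ± 0.384 RPKM. MBD6 differed most, at 1.94-fold higher in replicate 1. Of the 6 proteins whose CXXC domain binds unmethylated CpG, 4 were higher in replicate 1, against 47.9% of tested genes, with a median difference of -0.39. FBXL19 led at 31.5 ± 0.466 RPKM, CXXC1 followed at 16.2 ± 3.68 RPKM, and the histone methyltransferase KMT2B differed most, at 1.67-fold higher in replicate 1.

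**Figure D4:**
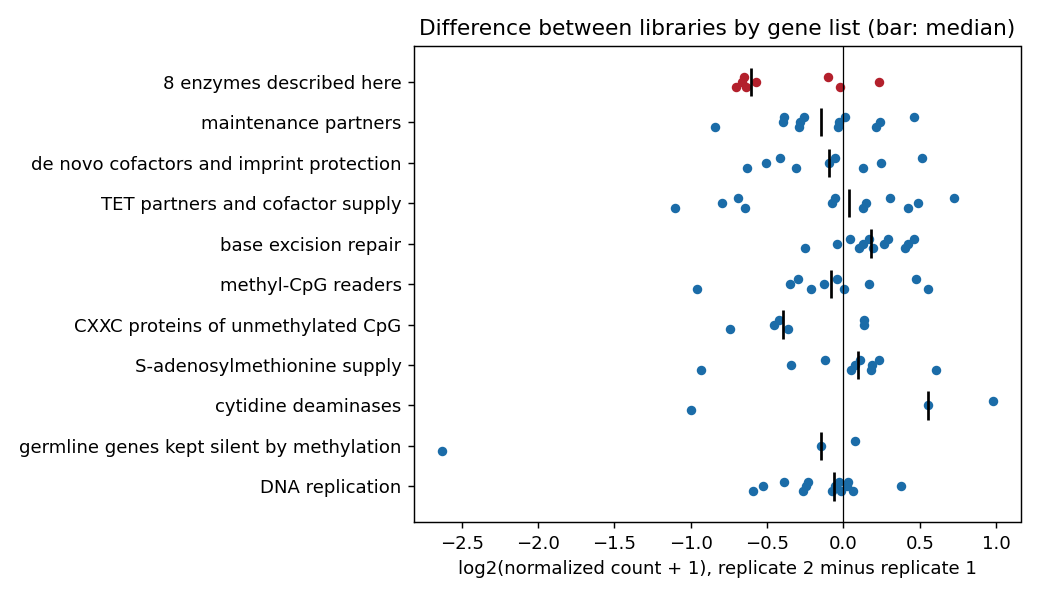
Difference between the libraries (horizontal axis, log2, replicate 2 minus replicate 1) for each gene whose mean normalized count reached 10 among the 8 enzymes (red) and 10 pathway lists (blue). Vertical bars are medians; that of the 8 enzymes lies at -0.60, that of base excision repair at 0.18 and that of DNA replication at -0.065.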

How the data were processed

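Poly(A) RNA of H1 cells was sequenced in paired ends. The authors deposited a table of normalized counts, a signal in which each gene's reads are divided by 1 size factor per library; in both columns used, 100% of values were whole multiples of 1 step (within 0.01 reads), so whole reads were recovered. The size factors were 0.932 and 0.948. Trimmomatic 0.36, STAR, featureCounts 1.5.3, DESeq2 1.26.0 and hg38 are named, without roles, per the submitters' processing notes; annotation, strand setting and row filter: not given in the sources used here. Columns were matched to samples by treatment, time and replicate; 7 of 9 matched none and were not used. The planned edgeR test therefore could not be run.

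RPKM used merged exons of GENCODE release 29 (GRCh38), and 1 list symbol was matched through an older name. Intervals were computed on simulated counts of these libraries (Python 3.11.15, scipy 1.17.1), where 95.3% of 16148 held the true ratio. Those counts were drawn with counting error (Poisson) only, the case the interval is built for. The result checks the calculation and says nothing about variation between real libraries. All 8 enzymes are named; of each pathway list, the 2 highest in RPKM, the one with the largest difference and any with at most 3 reads in a library. The enzymes and lists were chosen with earlier results of these data known.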

Additional observations from a re-analysis of the deposited data

How the results depend on the processing

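Leaving out each replicate moved the median RPKM of the 8 enzymes between 14.9 and 21.7, from 19.9. The share of all genes with a gap of at least 2-fold was 10.9% at a minimum mean of 10, 16.9% with no minimum and 5.64% with a minimum of 50. The number of enzymes higher in replicate 1 was 7 with total reads as the scale, quantile normalization, a pseudocount of 5 or a GC correction, and 6 once length was corrected too, where TET2 turned to 0.078. Total reads moved the median of all genes from 0.023 to -0.077. On that scale 56.9% of tested genes were higher in replicate 1, against 47.9% with the authors' size factors. Quantile normalization put DNMT3B at -0.90. With longest transcripts TDG (32.2 RPKM) ranked above UHRF1 (25.6 RPKM), and DNMT1 stood above TDG in both libraries. The cause was not tested. No paired analysis was possible because the columns that matched a sample belong to 1 group only. For the same reason the test of XMD892 against E8 and its alternatives were not run.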

Other observations

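The supply of the methyl donor S-adenosylmethionine was well expressed: 10 of 11 genes were at 1 RPKM or more in each library, and the list's median was 16.5 RPKM. AHCY, which clears the inhibitory product S-adenosylhomocysteine, led at 117 ± 1.36 RPKM (SD, n = 2), and MAT2A, the synthetase of non-hepatic cells, followed at 63.5 ± 30.8 RPKM. MAT2A had 7087 reads in replicate 1 and 3785 in replicate 2, 1.90-fold more in replicate 1, while 7 of the 10 tested genes of this list were higher in replicate 2, against 52.1% of all tested genes. With total reads as the scale 5 of the 10 were, against 43.1% of all tested genes. The list's median difference then turned from 0.092 to -0.0087. The liver synthetase MAT1A had 6 and 2 reads.

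Germline genes that promoter methylation commonly silences in somatic and pluripotent cells were near the detection limit. Of 12 such genes 5 were in the table, and 0 of them came to 1 RPKM in each library. SOHLH2 and MAGEA4 were the highest at 0.425 ± 0.00475 and 0.387 ± 0.0475 RPKM (SD, n = 2). DAZL had 17 reads in replicate 1 and 2 in replicate 2, and STK31 had 9 and 2. Of 8 cytidine deaminases 3 were listed. APOBEC3B stood at 3.04 ± 1.57 RPKM on 146 and 74 reads and APOBEC3C at 2.97 ± 0.659 RPKM on 131 and 196 reads, so the 2 genes differed in opposite directions.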
